A study of Homo sapiens with 10 samples.

Results

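The genes described here are 10 enzymes that make serine and glycine and pass their carbon to folate: PHGDH, PSAT1, PSPH, SHMT1, SHMT2, MTHFD1, MTHFD1L, MTHFD2, GLDC and AMT. They were chosen by name, as the core of this pathway, with earlier results of these data known. All 10 of them were found in each of the 4 deposited tables, which share 22848 gene symbols. RNA came from undifferentiated cells of WA09, an established line of human embryonic stem cells (hESC), and from 4 cell types made from them, with 2 libraries for each of the 5 cell types; every group is thus of this 1 line. The labels do not say that the 2 libraries of a group came from separate cultures, so the authors' p-values may measure technical spread only. The hESC group had 4 days in FGF (8 ng/mL), activin A (10 ng/mL), heregulin (10 ng/mL) and IGF-I (200 ng/mL). Definitive endoderm (DE) had 4 days in FGF (8 ng/mL) and activin A (100 ng/mL), plus Wnt-3a (25 ng/mL) on the first day, with neither IGF-I nor heregulin. Splanchnic mesoderm (MESO) had 4 days in the same factors as hESC with BMP-4 (100 ng/mL) and Wnt-3a (25 ng/mL) added. Neural progenitors (NPC) had 6 days in IGF-I (200 ng/mL), heregulin (10 ng/mL), SB431542, which blocks activin receptors, and LDN (500 nM), which blocks BMP receptors, and had neither FGF nor activin A. Pre-neural crest cells (NCSC) had 6 days in FGF (8 ng/mL), IGF-I (200 ng/mL), heregulin (10 ng/mL), SB431542 and the GSK3 inhibitor BIO, without activin A. Both 6-day cultures were plated at 90000 cells per square centimetre and the other groups at 50000.

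Cells build serine from a glycolytic intermediate through PHGDH, PSAT1 and PSPH in turn. SHMT1 in the cytosol and SHMT2 in mitochondria split serine into glycine and a carbon unit carried on folate. MTHFD2 and MTHFD1L carry that unit to formate inside mitochondria, and MTHFD1 takes the formate up in the cytosol, where the units serve purine and thymidylate synthesis and the methionine cycle. GLDC and AMT are parts of the mitochondrial glycine cleavage system, which breaks glycine down and also yields a folate-bound carbon unit. Pluripotent and other fast-growing cells are known for their heavy use of this pathway.

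Each table gives 1 level per cell type as FPKM (sequenced fragments adjusted for transcript length and library size), in which the authors had combined the 2 libraries. No spread between libraries, no replicate check and no read depth can therefore be given, and the order of levels across cell types carries no test. All 4 comparisons share the hESC libraries, but each table has its own hESC column. "Fell" and "rose" below mean that the authors' q-value (a p-value adjusted over all features of the table) was below 0.05. Changes are differences of log2(FPKM + 1), derivative minus hESC of the same table, a scale that understates the change of low genes. The shares of all tested loci given beside the counts include loci under 1 FPKM. All 10 enzymes had at least 1 FPKM in every hESC column, and no share at matched levels was computed. Whether the labels' cell types were present was read from markers. Of 6 endoderm markers 5 rose in DE, SOX17, CXCR4 and GATA6 among them, while FOXA2 did not pass. In MESO 6 of 7 splanchnic mesoderm markers rose, and in NPC 5 of 6 neural progenitor markers. Of 5 hESC markers 5 fell in MESO, 3 in NPC, where SOX2 rose, and 3 in NCSC, but none passed in DE. In NCSC PAX3, SOX9 and SNAI2 rose, as they did in MESO and NPC, so they do not set NCSC apart from these. SNAI2 was at 80.9 FPKM in MESO. SOX10 did not pass in NCSC (2.57 FPKM in hESC and 2.91), FOXD3 fell to a listed 0, and TFAP2A (0.0463), TFAP2B (0.0987) and PAX7 (0.0512) were near 0. In bulk RNA, fewer cells of a type and less RNA per cell cannot be told apart.

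The stretches before the start sites of 5 of these genes are shown because 4 of them, PHGDH, MTHFD1, MTHFD2 and GLDC, fell in 2 or more tables, and PSAT1 is the next enzyme of the serine pathway. RefSeq (GRCh38.p14, another build than the hg19 of the tables) gave promoter windows of 300 bases for 8 of the 10 genes, all but PSPH and SHMT2, of which the 250 bases before the start are printed, 5′ to 3′. Capitals mark 2 motifs, searched on both strands: CCAAT (or ATTGG), the CCAAT box, and CACGTG, the E-box that MYC and related factors can bind.
PHGDH (chr1:119711684-119711933, plus strand): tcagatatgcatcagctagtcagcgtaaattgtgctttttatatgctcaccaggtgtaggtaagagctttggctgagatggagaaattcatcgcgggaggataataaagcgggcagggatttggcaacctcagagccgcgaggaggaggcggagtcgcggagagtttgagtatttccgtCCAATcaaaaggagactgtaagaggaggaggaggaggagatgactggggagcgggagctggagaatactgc
PSAT1 (chr9:78296875-78297124, plus strand): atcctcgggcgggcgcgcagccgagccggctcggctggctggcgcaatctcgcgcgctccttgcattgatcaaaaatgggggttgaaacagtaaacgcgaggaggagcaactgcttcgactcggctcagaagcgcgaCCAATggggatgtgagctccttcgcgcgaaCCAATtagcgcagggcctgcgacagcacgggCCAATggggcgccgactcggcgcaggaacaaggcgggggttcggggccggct
MTHFD1 (chr14:64388103-64388352, plus strand): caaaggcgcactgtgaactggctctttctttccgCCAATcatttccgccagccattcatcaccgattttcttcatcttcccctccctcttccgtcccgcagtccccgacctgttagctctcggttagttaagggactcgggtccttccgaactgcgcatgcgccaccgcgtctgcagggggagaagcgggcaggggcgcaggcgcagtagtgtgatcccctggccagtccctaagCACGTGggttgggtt
MTHFD2 (chr2:74198365-74198614, plus strand): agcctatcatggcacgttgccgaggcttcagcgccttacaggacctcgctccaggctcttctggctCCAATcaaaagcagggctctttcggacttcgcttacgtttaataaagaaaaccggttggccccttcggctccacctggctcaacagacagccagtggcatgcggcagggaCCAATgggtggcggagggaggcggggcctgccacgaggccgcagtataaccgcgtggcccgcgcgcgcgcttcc
GLDC (chr9:6645730-6645979, minus strand): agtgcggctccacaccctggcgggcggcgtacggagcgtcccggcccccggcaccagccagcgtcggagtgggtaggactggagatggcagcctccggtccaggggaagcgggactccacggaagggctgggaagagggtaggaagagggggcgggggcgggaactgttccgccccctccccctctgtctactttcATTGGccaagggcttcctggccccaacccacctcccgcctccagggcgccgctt
The CCAAT letters lay in the first listed window of 8 of 8 genes, against 34.6% of all 35116 RefSeq windows of that length. All windows here means every listed start of a gene and not the first alone, so the 2 sets are not alike. PSAT1 held 3 CCAAT matches, at -113, -83 and -52 from the start. CACGTG lay in 2 of the 8, MTHFD1 (at -15) and MTHFD1L, against 7.26% of all windows. Another motif, TGATGNAA, the letters of a composite element for ATF4 and C/EBP factors, lay in 1 of the 8, MTHFD1L, against 3.62% of all windows. MTHFD1L has several listed starts close together, and its matches are shown as short stretches, with the motif in capitals.
MTHFD1L, TGATGNAA: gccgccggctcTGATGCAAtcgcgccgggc
MTHFD1L, CACGTG: acgcccggctcCACGTGcgcagccggcc
From the first listed start these lie at -129 and -154. A match describes the letters and is not a site shown to be bound.

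In hESC PHGDH, PSAT1, MTHFD2 and SHMT2 were the 4 most abundant of these mRNAs, while PSPH and SHMT1 were the least abundant. MTHFD1L, by its highest row, stood below its cytosolic counterpart MTHFD1. PHGDH, which commits carbon to serine, was at 211, 248, 276 and 258 FPKM in the hESC columns of the DE, MESO, NPC and NCSC tables, at percentile 97.96 to 98.47 of the loci with at least 1 FPKM. PSAT1, the aminotransferase of the second step, was at 104, 218, 258 and 244 FPKM. MTHFD2, the mitochondrial dehydrogenase and cyclohydrolase, was at 118, 127, 151 and 145 FPKM, and SHMT2 at 67.7, 109, 123 and 116. MTHFD1, the cytosolic trifunctional enzyme, was lower, at 46.6 to 57.7 FPKM, as were MTHFD1L, the mitochondrial formate-producing synthetase, at 31.8 to 41.2, and GLDC, the decarboxylase of glycine cleavage, at 29.2 to 37.1. MTHFD1L had a second large row in hESC of the NCSC table, at 37.0 FPKM. Its order with MTHFD1 in that column depends on how its rows are counted. PSPH, the phosphatase of the last step, had 14.4 to 21.7 FPKM. SHMT1 had 11.2 and 11.9 FPKM where it had a row of its own, in the DE and NCSC tables. Its row in the MESO and NPC tables is merged with the topoisomerase gene TOP3A and had 20.8 and 23.3. AMT, the aminomethyltransferase, is merged with its neighbour NICN1 in every table, so the 25.7 to 30.6 FPKM belong to both. Per length, PHGDH was the most abundant of the 10 in each hESC column. SHMT1 was the least abundant in the DE and NCSC tables. In the other tables the PSPH row was the lowest, but SHMT1 has no row of its own there, so its rank is not known.

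**Figure D1:**
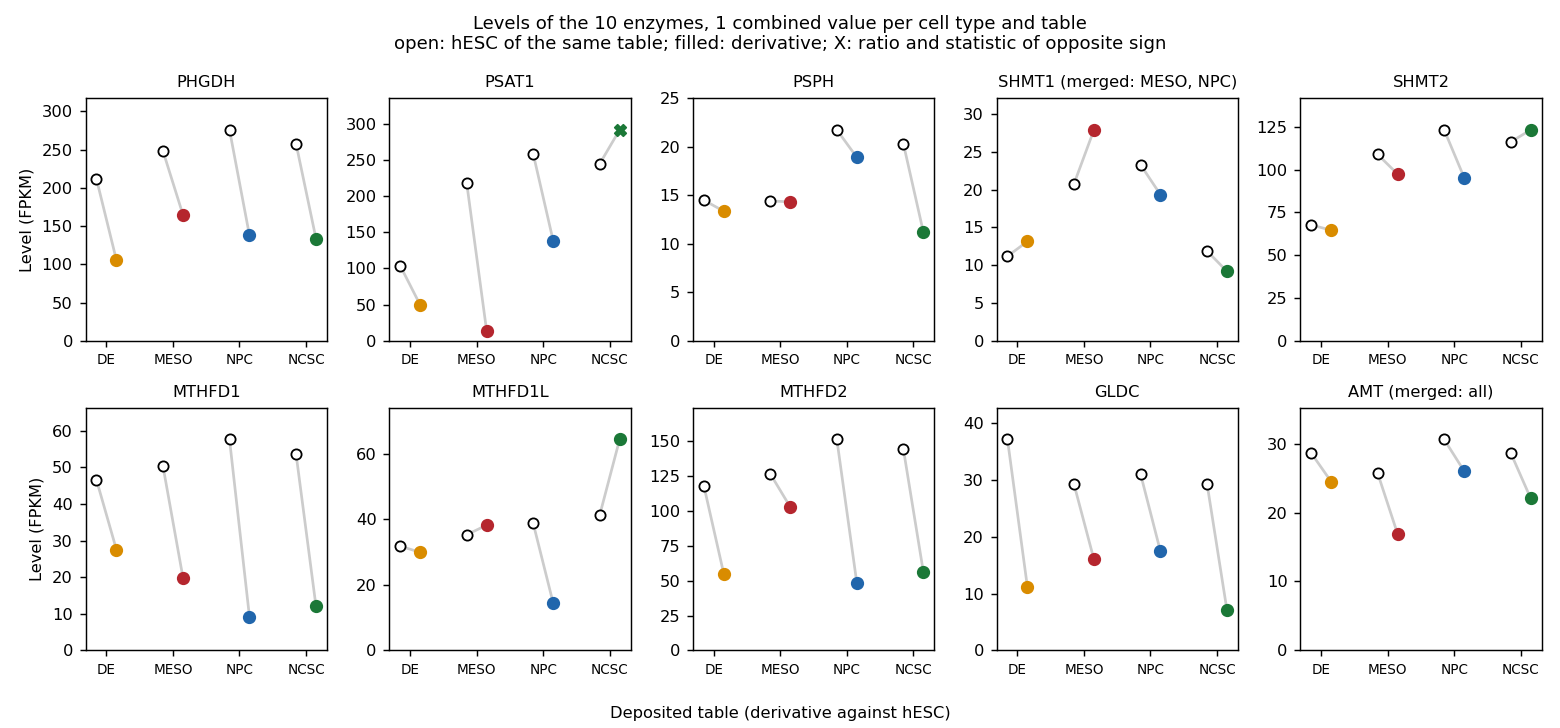
Level (FPKM, linear axis from 0) of each enzyme in hESC (open circles) and in the derivative (filled) of each of the 4 deposited tables; each point is 1 value that combines 2 libraries, so there is no error bar, and the X marks PSAT1 in NCSC, for which no direction is given. PHGDH, MTHFD1, MTHFD2 and GLDC lie below hESC in all 4 derivatives, while SHMT2 stays within 64.6 to 123 FPKM in the derivatives.

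The hESC value of a gene was not the same in every table. For most of the 10 the highest hESC value was 1.19 to 1.51 times the lowest, as for AMT (1.19) and PSPH (1.51). PSAT1 (2.49 times) and SHMT2 (1.82 times) differed more, since the DE table gave both a low hESC value. SHMT1 differed by 2.08 times, between rows with and without TOP3A. For PSAT1 the hESC value of the DE table was 0.425 of the median of the other 3 tables, for SHMT2 0.583. Of 6838 symbols with at least 10 FPKM in every hESC column, 1.52% had a ratio below 0.6. Changes of these genes in DE therefore depend on which hESC value is taken, and how the columns were scaled is not given in the sources used here.

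In DE none of the 10 enzymes passed the test, in a table where 0.427% of 14764 tested loci did (0.0203% lower and 0.406% higher). The 5 hESC markers did not pass there either, although POU5F1 was listed at 232 FPKM in hESC and 29.7 in DE, and NANOG at 19.2 and 1.83. A missing call in this table thus does not show that a difference was small. One enzyme, GLDC, had an unadjusted p below 0.05: it was at 37.1 FPKM in hESC and 11.1 in DE, a change of -1.65 (p = 0.0166 and q = 0.421 in the authors' deposited table). PHGDH was at 211 and 105 FPKM (change -1.0), MTHFD2 at 118 and 55.0 (-1.09), PSAT1 at 104 and 49.7 (-1.05) and MTHFD1 at 46.6 and 27.5 (-0.74). The other 5 had changes between -0.22 and 0.22, among them SHMT2 with 67.7 and 64.6 FPKM and MTHFD1L with 31.8 and 29.9. The median change of the 10 was -0.48, beside 0.04 over all tested loci, and 9 of 10 values lay below hESC. The hESC value of GLDC in this table was high, at 1.26 times its median in the other 3 tables. Against the median hESC value of the other 3 tables, the change of GLDC was -1.32, that of PSAT1 -2.28 and that of SHMT2 -0.84. For SHMT1 it was -0.62 in place of 0.22, but that median (20.8 FPKM) is of a row merged with TOP3A. In the NCSC table, where SHMT1 has its own row, hESC had 11.9 FPKM, beside 13.2 in DE.

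In MESO 1 of the 10 enzymes fell, MTHFD1, in a table where 5.38% of 14771 loci fell and 9.05% rose, 14.4% in all. It went from 50.3 to 19.9 FPKM, a change of -1.30 (q = 0.00789 in the authors' deposited table), and did not pass with normal p-values computed from the authors' statistic (q = 0.152). Its mitochondrial counterparts stood close to hESC: MTHFD2 at 127 and 103 FPKM (q = 0.747 in the authors' deposited table) and MTHFD1L at 35.2 and 38.2 (q = 0.943). PHGDH was at 248 and 165 FPKM (change -0.59), GLDC at 29.2 and 16.0 (-0.83) and SHMT2 at 109 and 97.4 (-0.16). PSPH was at 14.4 and 14.3 FPKM. PSAT1 was listed at 218 FPKM in hESC and 13.9 in MESO, a log2 ratio of -3.97, and yet did not pass (p = 0.0370 and q = 0.179 in the authors' deposited table). Its ratio divided by its statistic was 2.72, where the median of this quotient over loci with a mean of at least 20 FPKM was 0.61, so the PSAT1 level in MESO is given as uncertain. In the same table all 4 trophoblast and amnion markers (CGA, KRT7, VTCN1 and GATA3) rose, their summed level going from 2.28 to 305 FPKM; their part in these values was not tested. None of 8 proliferation genes passed in MESO.

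In NPC 6 of the 10 enzymes fell and none rose, where 24.8% of 14842 loci fell and 36.8% passed in either direction. MTHFD1 had the largest change, from 57.7 to 9.20 FPKM (-2.52, q = 0.000323 in the authors' deposited table, the lowest q that table holds). The mitochondrial enzymes MTHFD2, from 151 to 48.5 FPKM (-1.62), and MTHFD1L, from 38.8 to 14.5 (-1.36, q = 0.000860 in the authors' deposited table), fell as well. In the serine pathway PHGDH fell from 276 to 138 FPKM (-1.0, q = 0.00268 in the authors' deposited table) and PSAT1 from 258 to 138 (-0.90, q = 0.0127). GLDC fell from 31.1 to 17.4 FPKM (-0.80, q = 0.0218 in the authors' deposited table). The 4 others did not pass: SHMT2 at 123 and 95.4 FPKM (q = 0.338 in the authors' deposited table), PSPH at 21.7 and 18.9, the SHMT1 and TOP3A locus at 23.3 and 19.3, and the AMT and NICN1 locus at 30.6 and 26.0. All tested loci of this table had a median change of -0.25, against -0.85 for the 10 enzymes. With normal p-values from the authors' statistic 3 enzymes fell, MTHFD1, MTHFD2 and MTHFD1L, and 2 did with the fold also centred on the median of expressed loci, MTHFD1 and MTHFD2; a minimum change of 1 left 3. Of 8 proliferation genes 3 fell in NPC, CCNB1, PCNA and BIRC5. The summed level of the 8 was 910 FPKM in hESC and 582 in NPC, while MKI67 was at 24.9 and 33.1 without passing. The part of cell division in the falls of the enzymes was not tested. Of 3 neuron markers MAP2 (0.732 to 42.1 FPKM) and STMN2 (0.671 to 2.91) rose in NPC and TUBB3 fell (137 to 37.5). The part of neurons was not tested either.

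In NCSC 4 of 9 enzymes fell, with PSAT1 left out and MTHFD1L counted by the row with its highest mean, where 19.8% of 14847 loci fell and 30% passed in either direction. MTHFD1 went from 53.8 to 12.1 FPKM (-2.06), GLDC from 29.4 to 7.07 (-1.91) and MTHFD2 from 145 to 56.5 (-1.34), each with q = 0.000455 in the authors' deposited table, its lowest value. PHGDH fell from 258 to 134 FPKM (-0.94, q = 0.00570 in the authors' deposited table), but not with normal p-values from the authors' statistic (q = 0.0866). PSPH was at 20.3 and 11.2 FPKM, short of the threshold (q = 0.0788 in the authors' deposited table), SHMT1 at 11.9 and 9.18, SHMT2 at 116 and 123, and AMT with NICN1 at 28.7 and 22.1. PSAT1 is given no direction: its levels were listed as 244 FPKM in hESC and 291 in NCSC, while the authors' statistic was -2.98 (q = 0.000848 in the authors' deposited table), and the NCSC cell held 7 significant digits where 6 are usual. MTHFD1L had 8 rows over the same span in this table. The row with the highest mean was at 41.2 and 64.3 FPKM (q = 0.467 in the authors' deposited table) and the next one at 37.0 and 26.2 (q = 0.331), with changes of 0.63 and -0.48, so no direction can be read for MTHFD1L in NCSC. The median change of the 9, with that MTHFD1L row among them, was -0.80, and that of all tested loci -0.22. Of 8 proliferation genes 7 fell, all but TOP2A, and the summed level of the 8 was 846 FPKM in hESC and 411 in NCSC. Of 3 neuron markers 2 rose and none fell. The part of cell division or of neurons in the falls of the enzymes was not tested.

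**Figure D2:**
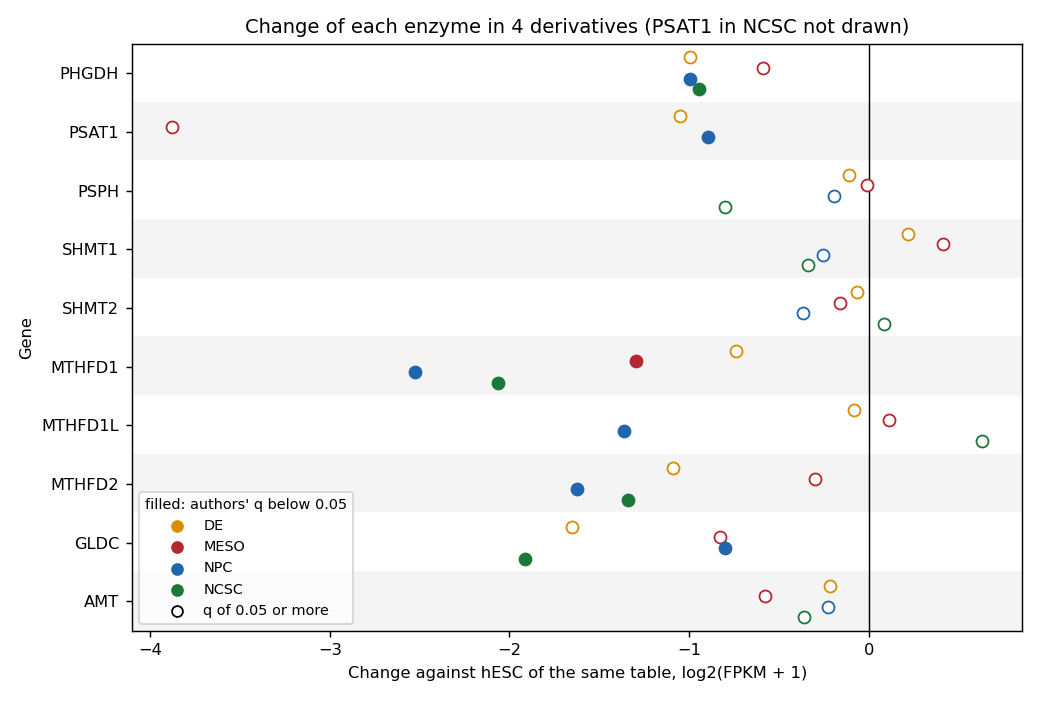
Change of each enzyme against hESC of the same table, in log2(FPKM + 1), for 4 derivatives; filled points have an authors' q below 0.05 and open points do not, and PSAT1 in NCSC is not drawn. MTHFD1 is filled in MESO, NPC and NCSC, while PSPH, SHMT1, SHMT2 and AMT have no filled point.

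Across the 4 tables the enzymes differed in how often they were called. MTHFD1 fell in 3 tables, PHGDH, MTHFD2 and GLDC in 2, PSAT1 and MTHFD1L in 1, and PSPH, SHMT1, SHMT2 and AMT in none; no enzyme rose in any table. In these tables MTHFD1 was listed at 27.5 FPKM in DE, 19.9 in MESO, 12.1 in NCSC and 9.20 in NPC, all below the lowest hESC value of 46.6. The order for GLDC was another: 17.4 FPKM in NPC, 16.0 in MESO, 11.1 in DE and 7.07 in NCSC, against at least 29.2 in hESC. PHGDH stood at 165 FPKM in MESO, 138 in NPC, 134 in NCSC and 105 in DE. MTHFD2 was at 103 FPKM in MESO, 56.5 in NCSC, 55.0 in DE and 48.5 in NPC. No spread is at hand to separate neighbours in these orders. For SHMT2 the NCSC value of 123 FPKM lay within the hESC range of 67.7 to 123. The low end of that range is the hESC value of the DE table, and the other hESC columns had 109, 116 and 123. MESO (97.4) and NPC (95.4) lay between 67.7 and these values, and DE (64.6) just below 67.7. A q at or above the threshold does not show that a gene was unchanged.

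Ratios of FPKM between enzymes within 1 column do not depend on the scaling between columns. They still carry a difference of a single gene between tables, such as the low hESC value of SHMT2 in the DE table. MTHFD2 was 2.52 to 2.69 times as abundant as MTHFD1 in the 4 hESC columns. The ratio was 2.0 in DE, 5.17 in MESO, 5.27 in NPC and 4.67 in NCSC. SHMT2 was at 0.573 of MTHFD2 in the hESC column of the DE table and at 0.803 to 0.860 in the other hESC columns. In the derivatives it was at 1.18 in DE, 0.947 in MESO, 1.97 in NPC and 2.18 in NCSC. The SHMT2 mRNA thus exceeded that of MTHFD2 in DE, NPC and NCSC. PHGDH stood at 3.12 times SHMT2 in the hESC column of the DE table. The other hESC columns had 2.22 to 2.28 times and the derivatives 1.08 to 1.69 times. These ratios are descriptions of 1 combined value each and were not tested.

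**Figure D3:**
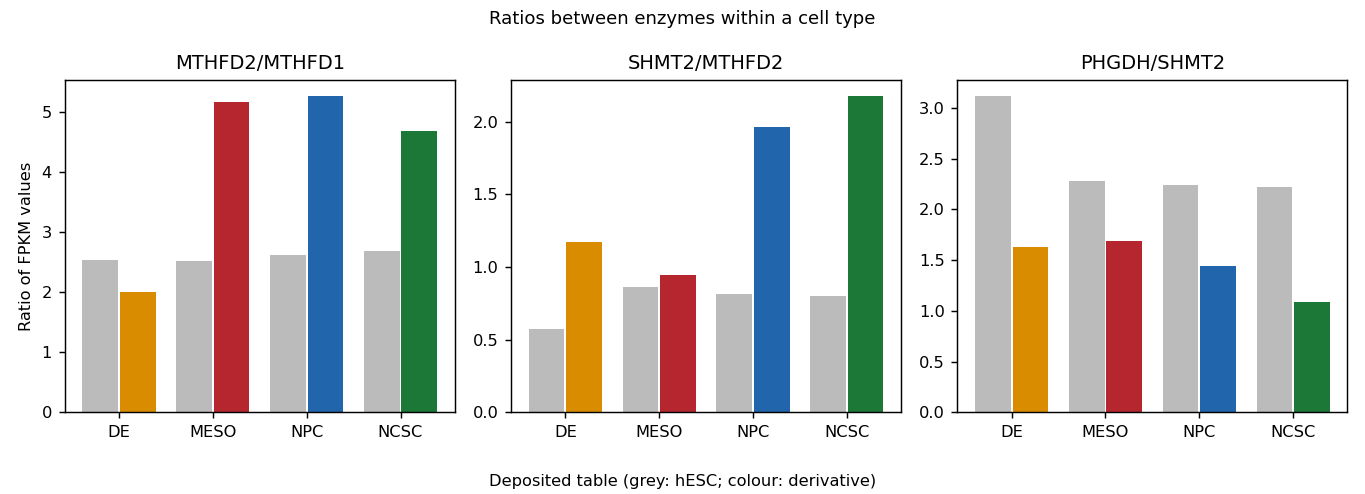
Ratio of the FPKM values of 2 enzymes within a cell type (bars from 0), for hESC (grey) and the derivative (colour) of each deposited table; bars have no error because each value combines 2 libraries. MTHFD2 over MTHFD1 lies between 2.52 and 2.69 in hESC and between 4.67 and 5.27 in MESO, NPC and NCSC, but at 2.0 in DE.

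The genes that supply, extend or use the pathway were read from lists by function, 77 genes in all. These lists too were chosen with earlier results of these data known. None of 75 tested passed in DE. In MESO 2 fell and 6 rose of 75 tested, where 5.38% of all loci fell and 9.05% rose. In NPC 27 of 74 fell (36.5%) and 4 rose, where 24.8% of all loci fell and 12% rose. In NCSC 22 of 74 fell (29.7%) and 6 rose, where 19.8% of all loci fell and 10.2% rose. Their median change was -0.75 in NPC, beside -0.25 over all tested loci, and -0.54 in NCSC, beside -0.22. The counts of the single lists below are to be read against the same shares of all loci.

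Of the folate genes, GGH and FOLR1 were each called in 3 tables. GGH, the hydrolase that trims the glutamate tail of folates, rose in 3 tables: from 13.4 to 56.5 FPKM in MESO, 15.5 to 37.8 in NPC and 14.5 to 28.7 in NCSC. FOLR1, the folate receptor alpha, rose from 0.256 to 13.7 FPKM in MESO, 0.275 to 3.50 in NPC and 0.255 to 2.62 in NCSC. In DE both were above hESC without passing, GGH at 15.9 and 32.2 FPKM and FOLR1 at 0.398 and 6.16. TYMS, thymidylate synthase, rose in MESO (44.8 to 114.7 FPKM) and NCSC (47.4 to 90.3). Of the 13 other folate cycle genes, with TYMS and GGH among them, none fell in NCSC, where 19.8% of loci fell, and 2 did in NPC, where 24.8% fell: ATIC (99.6 to 42.5 FPKM) and ALDH1L1, which was under 1 FPKM in both cell types. FTCD, which breaks down histidine with folate as acceptor, rose in NCSC from 0.499 to 5.89 FPKM. Of 4 tested folate transport genes, FOLR1 among them, SLC46A1, the proton-coupled folate transporter, fell in NPC from 1.58 to 0.348 FPKM. SLC25A32, the mitochondrial folate carrier, passed in no table, with 10.2 FPKM in hESC and 4.12 in NPC.

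Of 11 genes on the serine and glycine transport list 7 fell in NPC, where 24.8% of all loci fell, and 6 in NCSC, where 19.8% did. Both counts include SLC3A2 and SLC7A5, and the list is thus wider than carriers of serine and glycine alone. SLC38A5, a carrier of glutamine, serine and glycine, fell from 10.3 to 1.85 FPKM in MESO, 10.8 to 2.07 in NPC and 10.1 to 4.77 in NCSC. SLC7A5, the large neutral amino acid transporter, was named after its values were seen: it fell from 250 to 26.6 FPKM in NPC and from 235 to 21.7 in NCSC, but was at 115 and 330 in DE without passing. Of 12 purine synthesis genes 6 fell in NPC (50% against 24.8% of loci) and 4 in NCSC (33.3% against 19.8%). In MESO 1 of the 12 fell, a share of 8.33% near the 5.38% of all loci. PRPS1, which makes the ribose donor of purines, fell in 3 tables, from 59.4 to 22.6 FPKM in MESO, 69.1 to 34.2 in NPC and 64.6 to 30.4 in NCSC. GART, a folate-using purine enzyme, was at 83.8 and 29.1 FPKM in NPC and just missed the threshold (q = 0.0523 in the authors' deposited table). Of 10 methionine cycle genes 3 fell and 1 rose in NPC and in NCSC, and of 13 tested genes that use serine or glycine 4 fell and 1 rose in each. In NPC these shares (30% and 30.8% lower) were near the 24.8% of all loci that fell, and in NCSC they stood beside 19.8%. Of 10 thymidylate and deoxynucleotide genes 4 fell in each of these tables (40%) and 1 rose in NCSC. Some genes, such as GART, ATIC and TYMS, stand in more than 1 list. Of 5 other genes listed with glycine cleavage, DLD, a subunit shared with other dehydrogenases, fell in NPC (58.1 to 27.7 FPKM) and NCSC (53.8 to 26.5). The other genes of that list, GCSH, LIAS, LIPT1 and LIPT2, passed in no table.

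Regulators of these enzymes were read in the same way. ATF4, a transcription factor that raises serine pathway genes when amino acids are short, fell in NPC from 235 to 128 FPKM (q = 0.00648 in the authors' deposited table) and did not pass in MESO (207 and 308), DE (184 and 199) or NCSC (220 and 177). Of 21 tested genes of the ATF4 and amino acid response list, 10 fell and 1 rose in NPC (47.6% lower, against 24.8% of loci) and 9 fell and 2 rose in NCSC (42.9% lower, against 19.8%). In MESO 3 of 22 rose, 13.6% against 9.05% of loci, and none fell. DDIT4, an inhibitor of the kinase mTORC1, rose in MESO (58.8 to 130.2 FPKM), NPC (64.3 to 239) and NCSC (60.5 to 383). MYC fell in NPC (38.4 to 11.3 FPKM) and in NCSC (36.3 to 3.39), as did MYCN (45.3 to 10.3 and 42.8 to 24.0). Neither passed in DE or MESO; MYCN was at 41.4 and 17.6 FPKM in MESO, just short of the threshold (q = 0.0556 in the authors' deposited table).

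**Figure D4:**
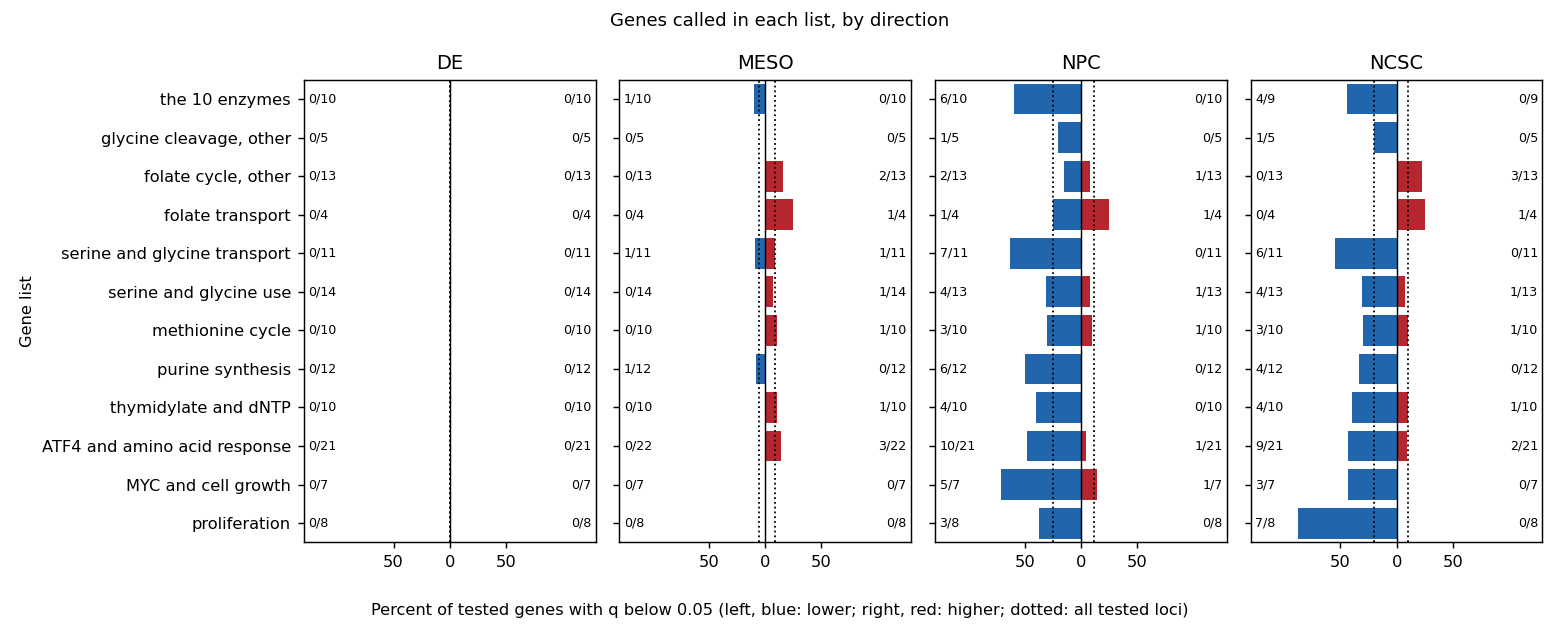
Percent of the tested genes of each list with an authors' q below 0.05, lower (blue, left) and higher (red, right) than hESC, in 4 tables; the counts stand at the sides and dotted lines give the percent of all tested loci. The 10 enzymes have 6 of 10 lower in NPC and 4 of 9 in NCSC (PSAT1 left out there), where 24.8% and 19.8% of all loci were lower.

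Positions are those of the NPC table (hg19), which gives a span per bundle of overlapping transcripts and not per gene. PHGDH lies on chromosome 1 from 120254198 to 120286849, PSAT1 on chromosome 9 from 80912058 to 80945210 and PSPH on chromosome 7 from 56077337 to 56119268. MTHFD1 lies on chromosome 14 from 64853692 to 64929947, MTHFD1L on chromosome 6 from 151186814 to 151423315 and GLDC on chromosome 9 from 6532463 to 6645733. Other spans hold a neighbour with a row of its own: SLC4A5 with MTHFD2 (chromosome 2, 74425689 to 74570534), NDUFA4L2 with SHMT2 (chromosome 12, 57623315 to 57634475) and SMCR8 with SHMT1 (chromosome 17, 18177234 to 18266866). AMT and NICN1 share chromosome 3, 49396315 to 49466757, with RHOA and TCTA. Whether counting used strand is not given in the sources used here, so reads of overlapping genes may not be separated.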

How the data were processed

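Poly-A RNA of 10 libraries was sequenced, per the labels' protocols. Tools listed in the submitters' processing notes are Cufflinks 2.2.1, TopHat2 2.0.13, featureCounts and Subread 1.5.2, with hg19 as build; their roles are not given. The authors deposited FPKM, 1 value per cell type in each of 4 tables, with a test statistic (a signed score), a p-value and a q-value, per the file headers; read depth is unknown. Rows on chromosomes 1 to 22 and X were kept, the gene cell was split at commas, and of several rows for a symbol the one highest in mean FPKM was taken. Loci whose score was 0 at a p-value of 1 counted as not tested. The pseudocount was 1. The planned tests on libraries, leave-one-out runs and the replicate block could not be run, since the tables hold no libraries; the authors' q-value stands in their place. Normal p-values came from the authors' score, adjusted by the Benjamini-Hochberg method (Python 3.11.15, scipy 1.17.1), with steps tested on simulated data. Members and lists were chosen with earlier results of these data known. Named list genes were those called in at least 3 tables in 1 direction. Others named from the lists were chosen after their values were seen. They are SLC7A5, SLC3A2, TYMS, ATIC, ALDH1L1, GART, DLD, FTCD, SLC46A1, SLC25A32, GCSH, LIAS, LIPT1, LIPT2, ATF4, ASNS, PCK2, MYC, MYCN and markers. Alternatives were other pseudocounts, quantile normalization, centring, filters and other hESC values.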

Additional observations from a re-analysis of the deposited data

How the results depend on the processing

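No paired analysis was possible because the tables hold 1 combined value per cell type; leaving out a replicate could not be run for the same reason. With normal p-values from the authors' statistic, 0 enzymes fell in MESO in place of 1 and 3 in NPC in place of 6; with the fold also centred on the median of expressed loci, the counts were 0 in MESO and 2 in NPC. A minimum log2 change of 1 left 3 enzymes in NPC, and of the linked pathway genes 20 in place of 31 in NPC and 18 in place of 28 in NCSC. The cause was not tested. NCSC kept 3 or 4 enzymes and DE 0 under every alternative run on these counts (normal p-values, centring, minimum change, filter, and, chosen after seeing the data, without PSAT1 or merged loci). In DE, 1 enzyme had an unadjusted p below 0.05. Of 241 recomputed enzyme changes, 8 shifted by more than 1.5-fold in the derivative to hESC ratio and 13 changed sign, none of them for an enzyme in a table where it was called. Quantile normalization brought the NPC changes of the called PHGDH, PSAT1 and GLDC nearer to 0, from -0.996, -0.90 and -0.80 to -0.45, -0.35 and -0.47. Of the 13 sign changes, 5 came with quantile normalization and 4 with hESC taken from the other 3 tables. Centring gave 3 and the second row of MTHFD1L in NCSC 1. With the other hESC values SHMT1 changed sign in DE and NPC, where a row with TOP3A was set against a row without. Centring removed a median change of expressed loci of -0.26 in NPC, -0.22 in NCSC, 0.05 in DE and 0.08 in MESO; in NPC it turned the small changes of PSPH, SHMT1 and AMT to 0.07, 0.00 and 0.03, and quantile normalization that of SHMT2 to 0.23.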

Other observations

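The genes whose 4 changes lay nearest to those of an enzyme were read among 6676 single-symbol loci with a mean of at least 10 FPKM, by the Euclidean distance over the 4 derivatives. Nearest to PHGDH were MIR1244-2, RGS10, a regulator of G protein signalling, and G3BP2, a stress granule protein, at distances of 0.25, 0.25 and 0.31. MIR1244-2 is a small RNA with near-identical copies, so its level is uncertain. Nearest to MTHFD2 were C8orf42, FARSB, a subunit of phenylalanyl-tRNA synthetase, and ZFAND5, at 0.24, 0.29 and 0.36. FARSB had changes of -0.81, -0.31, -1.69 and -1.32 in DE, MESO, NPC and NCSC, beside -1.09, -0.30, -1.62 and -1.34 for MTHFD2. GLDC had fewer near neighbours: PRKAR2B, a regulatory subunit of protein kinase A, at 0.44, and then PPM1B and THADA at 0.92 and 0.93. The 4 comparisons share the hESC libraries, so likeness over 4 points is a description.

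The low hESC values of the DE table reached other genes of amino acid supply. ASNS, asparagine synthetase, was at 43.5 FPKM in the hESC column of that table and at a median of 100.0 in the other 3, a ratio of 0.435, and PCK2, a mitochondrial carboxykinase, had a ratio of 0.566. Of 15 measured genes of the ATF4 and amino acid response list these 2 were below 0.6, and the list's median ratio was 0.84, beside 0.96 over all 6838 symbols. Of the 10 enzymes, PSAT1, SHMT2 and SHMT1 were below 0.6, SHMT1 being merged with TOP3A in 2 of the other 3 tables. ATF4 itself had a ratio of 0.837. The labels list 2 hESC libraries for all 4 tables.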
